A study of Mus musculus with 6 samples.

Results

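The tetraspanin family was examined in RNA-seq counts of mouse dendritic cells cultured with or without DB2313. Members were chosen by gene name and annotation class: protein-coding genes named Tspan with a number, together with Cd9, Cd37, Cd53, Cd63, Cd81, Cd82, Cd151, Upk1a and Upk1b. This gave 29 genes of the 54532 in the table, and 20 of the 14174 genes tested after the filter on low counts. No measured value entered the choice of single members, but the family was picked with the results of the comparison known. The counts of members that differed are therefore a description, and nothing about the family as a whole is tested here.

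There were 3 control libraries, from dendritic cells kept in 1640 medium with fetal bovine serum and antibiotics, and 3 libraries from such cells treated with DB2313, which the study describes as an inhibitor of Spi1. Spi1, also called PU.1, is a transcription factor of the ETS class on which myeloid cells depend. The labels give no strain, dose, time, vehicle or origin of the cells, and they do not say that the libraries of a group came from separate cultures, so the p-values measure the spread between these libraries, which may be technical. The text of the study speaks of macrophages where the labels name dendritic cells. The columns of the control libraries are named by a usual short form of bone marrow-derived dendritic cell and those of the treated libraries by Spi1. Every direction given here rests on reading the latter as the DB2313 libraries.

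Tetraspanins are small proteins that cross the membrane repeatedly. They bind each other and partner proteins such as integrins, immunoglobulin-type proteins and metalloproteases, and so gather them into membrane domains and guide their traffic through endosomes and onto exosomes. In dendritic cells and other leukocytes they are known for parts in antigen presentation, adhesion, migration and cell fusion, and Cd9, Cd63 and Cd81 are the common markers of exosomes.

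Total counts ranged from 16146743 to 19764677 per library, and the tetraspanins took 0.200 to 0.215% of them in control and 0.227 to 0.233% with DB2313. Replicates of both groups differed by more than sampling noise, with a chi-square per degree of freedom of 4.77 to 5.28 between control libraries and of 7.43 to 17.7 between DB2313 libraries, where replicates 1 and 3 were farthest apart. Mitochondrial genes held 2.06 to 2.41% of the counts in control and 1.46 to 1.57% with DB2313. Of 15 dendritic cell markers tested, 1 was higher and 3 were lower with DB2313, and their summed level was 12174.7 to 12425 CPM (counts relative to the TMM-scaled library size) in control and 10252.6 to 11907 CPM with DB2313. The class II genes Cd74 and H2-Ab1 were abundant and Flt3 and Zbtb46 were present, whereas Cd209a was near 0 in both groups. The table also held markers of other cells: 9 of 14 macrophage markers were lower and 2 higher, with sums of 1979 to 2103 and 1586 to 1860.1 CPM in the groups. Of 12 neutrophil markers 4 were higher and 1 lower, with sums of 4841 to 5317 and 5217 to 6505 CPM, and of 9 tested mast cell and basophil markers 2 were higher, with sums of 2521 to 2721 and 2569.8 to 3079 CPM. Over all genes tested, 10.6% passed. No T cell, B cell, megakaryocyte, fibroblast or epithelial marker passed, of 10, 2, 8, 3 and 2 tested, and the B cell genes Ms4a1 and Pax5 were near 0. Log2 fold changes were above 0 for 7108 of all 14174 genes tested. Of the dendritic cell markers 2 of 15 were above 0 (median -0.19), and of the macrophage markers 3 of 14 (median -0.37). Of the neutrophil markers 9 of 12 were above 0 (median 0.20), and of the mast cell and basophil markers 8 of 9 (median 0.10). All 10 T cell markers had log2 fold changes above 0, with a median of 0.15. The groups did not overlap for the 2 B cell genes tested, as for 27.4% of all genes. Not passing does not show that these cells were unchanged. The part of such cells in the tetraspanin values was not tested. In such bulk samples, fewer cells of a type and less RNA per cell cannot be told apart.

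With DB2313, 6 tetraspanin genes rose, Tspan7, Cd81, Tspan2, Tspan32, Tspan3 and Cd37, and 2 fell, Tspan13 and Tspan33, at an adjusted p under 0.05 in edgeR's quasi-likelihood test. The other 12 tested members did not pass. The 8 members that passed were 40% of the 20 tested, beside 10.6% of all 14174 genes tested. By direction, 4.66% of all genes tested were higher and 5.94% were lower. The log2 fold change, DB2313 against control, was above 0 for 14 of the 20 members, with a median of 0.16 beside 8.2e-04 over all genes. No overlap between the groups was seen for 13 of the 20 members and for 27.4% of all genes. Of the 8 members that passed, 4 changed at least 1.5-fold, and Tspan7 alone at least 2-fold.

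**Figure D1:**
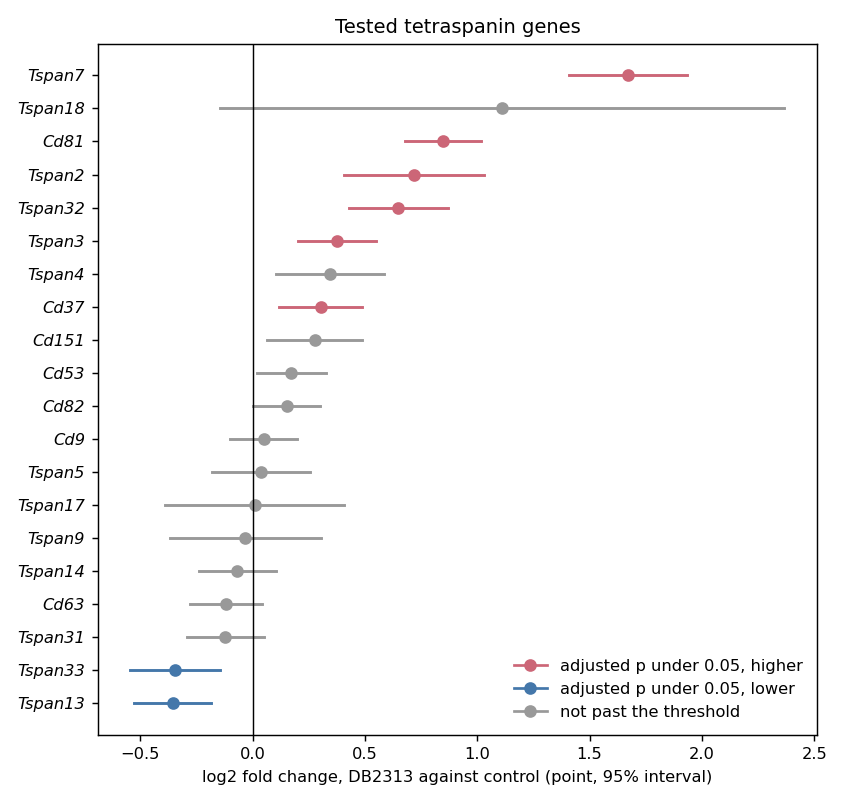
Log2 fold change (x axis, DB2313 against control) of each tested tetraspanin gene (y axis), as points with 95% intervals from the edgeR fit over 3 libraries per group. Tspan7 stands farthest to the right at 1.67, Tspan13 and Tspan33 lie left of 0, and the interval of the sparsely counted Tspan18 reaches from -0.15 to 2.37.

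The upstream stretches of 3 genes are shown, those with the smallest p-values, because Spi1 binds DNA and these are the sequences just before those genes. They are the bases upstream of the RefSeq start sites, 5′ to 3′ on the plus strand of GRCm38.p6, at chrX:10484866-10485115 for Tspan7, chr7:143052500-143052738 for Cd81 and chr7:143004796-143005045 for Tspan32. Capitals mark the letters GAGGAA, a string that PU.1 favours, searched on both strands. Other strings that PU.1 can bind were not searched for.
Tspan7: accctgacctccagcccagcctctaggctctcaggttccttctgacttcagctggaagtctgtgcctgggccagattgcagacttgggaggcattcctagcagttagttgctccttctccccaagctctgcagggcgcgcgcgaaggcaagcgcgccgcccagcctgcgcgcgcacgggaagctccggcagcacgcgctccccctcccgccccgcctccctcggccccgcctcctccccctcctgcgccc
Cd81: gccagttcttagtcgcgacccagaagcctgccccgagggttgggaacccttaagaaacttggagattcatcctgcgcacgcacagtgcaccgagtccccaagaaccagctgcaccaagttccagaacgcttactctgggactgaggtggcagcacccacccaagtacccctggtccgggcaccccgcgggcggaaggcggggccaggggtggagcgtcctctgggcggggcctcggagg
Tspan32: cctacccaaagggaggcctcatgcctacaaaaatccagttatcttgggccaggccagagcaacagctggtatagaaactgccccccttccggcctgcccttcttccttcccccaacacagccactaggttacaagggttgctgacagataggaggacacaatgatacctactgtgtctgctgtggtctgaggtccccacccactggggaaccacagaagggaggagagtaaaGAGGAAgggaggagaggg
The stretch of Tspan32 held GAGGAA once, starting 18 bases upstream of the start site, and those of Tspan7 and Cd81 held it on neither strand. RefSeq windows were found for 27 of the 29 members, 37 windows in all. GAGGAA was in 27.0% of these, and in 23.3% of the 32851 such windows of all genes. Each window is the 250 bases before a start site, and only the bases outside the annotated gene are printed. Of the other members that changed, Cd37 had 2 matches in its window, and the windows of Tspan2, Tspan3, Tspan13 and Tspan33 had none. By outcome, GAGGAA was in 28.6% of the 7 windows of members that rose and in 0 of the 2 of those that fell. It was in 35.0% of the 20 windows of tested members that did not pass. A link between the string and the changes was not tested. A match is a string of letters and not a measured binding site, and no binding was measured here.

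Tspan7 encodes a tetraspanin best known from neurons and also found in dendritic cells. It lies on the X chromosome (ENSMUSG00000058254, GRCm38 X:10485158-10596605, plus strand). Its level was 8.79, 11.9 and 10.5 CPM in control replicates 1 to 3 and 35.4, 32.4 and 31.5 CPM in DB2313 replicates 1 to 3. The lowest DB2313 library was thus well above the highest control library. Its mean rose from 10.4 ± 1.56 to 33.1 ± 2.04 CPM (SD, n = 3 each), or 1.67 ± 0.12 (SE) as a log2 fold change (edgeR adjusted p = 9.8e-07). The values rest on 143 to 190 reads per control library and 524 to 647 reads per DB2313 library.

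Cd81 is a widely expressed tetraspanin that organises immune receptors in the membrane and is a common marker of exosomes. It lies on chromosome 7 (ENSMUSG00000037706, GRCm38 7:143052739-143067934, plus strand). It was at 61.7, 58.6 and 67.1 CPM in the control libraries and at 109, 110.0 and 118 CPM in the DB2313 libraries. Both groups were tight and lay far apart. Its mean rose from 62.5 ± 4.32 to 112 ± 4.59 CPM (SD, n = 3 each), or 0.85 ± 0.08 (SE) as a log2 fold change (edgeR adjusted p = 8.9e-06).

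Tspan32, a tetraspanin of blood cells known to restrain T cell proliferation and to support platelet function, lies 33.094 kb upstream of Cd81 on the same strand (ENSMUSG00000000244, GRCm38 7:143005046-143019644). The control libraries had 40.5, 38.1 and 44.0 CPM and the DB2313 libraries 74.5, 59.8 and 57.9 CPM. Replicate 1 stood above the other DB2313 libraries, and all 3 were above every control library. Its mean rose from 40.9 ± 2.93 to 64.1 ± 9.09 CPM (SD, n = 3 each), or 0.65 ± 0.10 (SE) as a log2 fold change (edgeR adjusted p = 8.8e-04). The 3 other tested genes within 50 kb of this pair, R74862, Tssc4 and Kcnq1, did not pass the test, with log2 fold changes of -0.13, 0.17 and 0.20 and edgeR adjusted p-values of 0.908, 0.435 and 0.873. R74862 overlaps Cd81 by 948 bp on the opposite strand, but had 80 reads in all against 8958 for Cd81.

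Tspan2, known best from myelin-forming cells and also made by leukocytes, lies on chromosome 3 (ENSMUSG00000027858, GRCm38 3:102734529-102801513, plus strand). It had 7.81, 8.66 and 8.34 CPM in control and 14.7, 14.2 and 11.8 CPM with DB2313. Replicate 3 was the lowest treated library and still above all controls. Its mean rose from 8.27 ± 0.429 to 13.6 ± 1.54 CPM (SD, n = 3 each), or 0.72 ± 0.15 (SE) as a log2 fold change (edgeR adjusted p = 0.00485). It was counted from 127 to 284 reads per library. The gene overlaps Tshb on the opposite strand, to which 13 reads were assigned in all libraries.

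Tspan3 is a widely expressed member (ENSMUSG00000032324, GRCm38 9:56131725-56165477, minus strand). It was at 150.0, 158 and 175 CPM in control and at 222, 216 and 188 CPM with DB2313. The gap from the highest control to the lowest DB2313 library was smaller than the range within either group. Its mean rose from 161 ± 12.7 to 209 ± 18.2 CPM (SD, n = 3 each), or 0.38 ± 0.08 (SE) as a log2 fold change (edgeR adjusted p = 0.00822). Without control replicate 1 or 2 or DB2313 replicate 2 the edgeR adjusted p was 0.0646, 0.0532 and 0.0641, respectively.

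Cd37, a leukocyte tetraspanin known for parts in antigen presentation and migration by dendritic cells, was the smallest of the increases (ENSMUSG00000030798, GRCm38 7:45233632-45239115, minus strand). Control libraries had 143, 132 and 156 CPM and DB2313 libraries 195, 177 and 159 CPM. The highest control and the lowest DB2313 library nearly met. Its mean rose from 143 ± 12 to 177 ± 17.8 CPM (SD, n = 3 each), or 0.30 ± 0.09 (SE) as a log2 fold change (edgeR adjusted p = 0.0354). This call was lost without control replicate 1 or 2 or DB2313 replicate 1 or 2, with edgeR adjusted p-values of 0.132, 0.191, 0.0630 and 0.135.

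Tspan13 was the first of the members that fell (ENSMUSG00000020577, GRCm38 12:36014557-36042500, minus strand). It was at 121, 129.8 and 130.4 CPM in control and at 108, 97.6 and 91.5 CPM with DB2313. All treated libraries were below all controls. Its mean fell from 127 ± 5.42 to 99.2 ± 8.57 CPM (SD, n = 3 each), or -0.36 ± 0.08 (SE) as a log2 fold change (edgeR adjusted p = 0.00913). Without control replicate 2 or 3 or DB2313 replicate 2 the edgeR adjusted p was 0.0670, 0.0634 and 0.0673, respectively.

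Tspan33 belongs to the TspanC8 members, which bind the metalloprotease Adam10 and carry it to the cell surface, and is also found on activated B cells and red cell precursors (ENSMUSG00000001763, GRCm38 6:29694222-29718559, plus strand). Control libraries had 37.3, 42.2 and 37.7 CPM and DB2313 libraries 31.6, 31.8 and 28.8 CPM. The groups did not overlap. Its mean fell from 39.1 ± 2.72 to 30.8 ± 1.68 CPM (SD, n = 3 each), or -0.34 ± 0.09 (SE) as a log2 fold change (edgeR adjusted p = 0.0285). Without DB2313 replicate 2 or any one of the control libraries the edgeR adjusted p was between 0.0621 and 0.171.

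**Figure D2:**
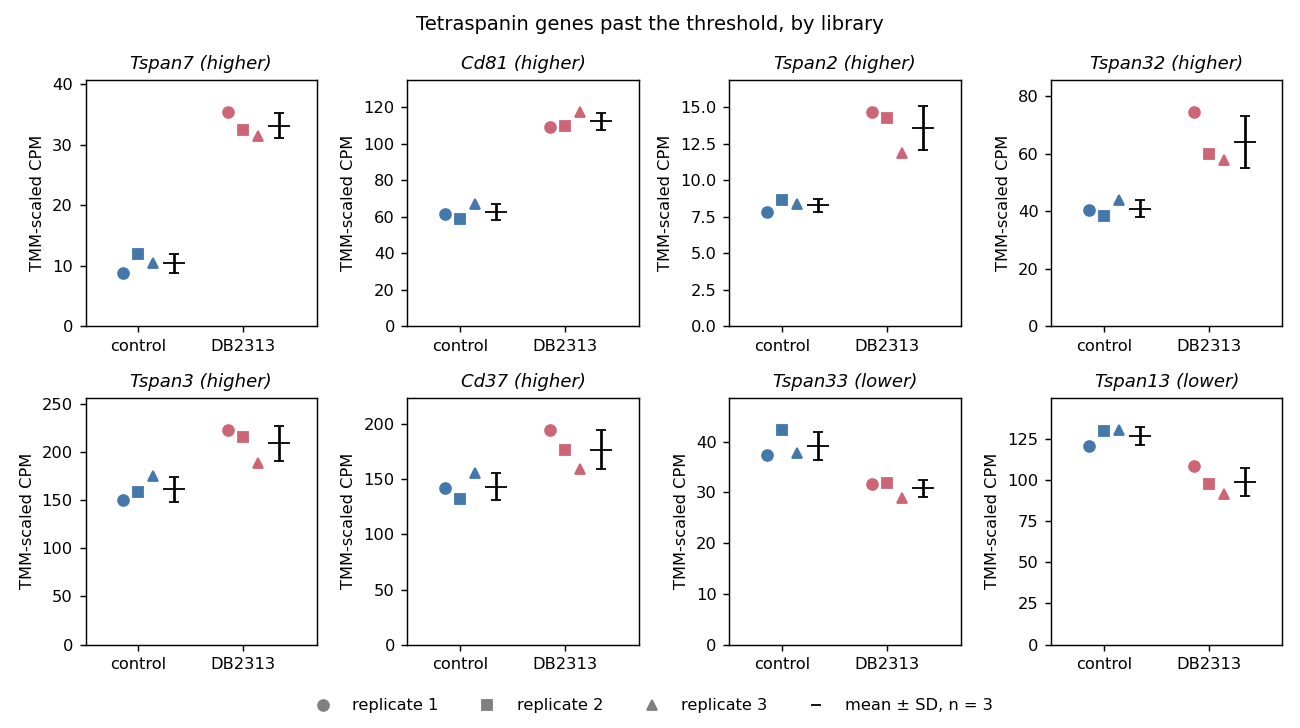
CPM (y axis, TMM-scaled, from 0) of the 8 tetraspanin genes past the threshold, 1 panel each, in the 3 control and 3 DB2313 libraries, with the mean and SD of each group (n = 3). The groups do not overlap in any panel, the gap is widest for Tspan7 and Cd81, and DB2313 replicate 3 is the lowest treated library in all panels but that of Cd81.

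The DB2313 libraries were ordered alike in most of the members that rose: replicate 1 was the highest in 5 of the 6 and replicate 3 the lowest in 5 of the 6. Cd81 was the exception, with replicate 3 the highest and replicate 1 the lowest. In both members that fell, replicate 3 was again the lowest. Replicates 1 and 3 were also the most distant of the DB2313 pairs over all genes, and the part of that spread in the changes was not tested.

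The members were then followed by role, to be read beside the 10.6% of all genes tested that passed. Tspan33 was counted both as a leukocyte and as a TspanC8 member. Of the 5 leukocyte tetraspanins, Cd37 and Tspan32 rose, Tspan33 fell, and Cd53 and Cd82 did not pass. Cd53, the pan-leukocyte member, was at 384, 355 and 377 CPM in control and at 387, 425 and 445 CPM with DB2313. Its groups did not overlap, by a margin of a few CPM, and the log2 fold change was 0.17 (95% interval 0.02 to 0.32) with an edgeR adjusted p of 0.154. Without DB2313 replicate 1 it was 0.23, with an edgeR adjusted p of 0.0344. Cd82, known as a suppressor of metastasis and a regulator of endosomal traffic in phagocytes, had 147, 161 and 163 CPM in control and 181, 171 and 171 CPM with DB2313. Every DB2313 library lay above every control library, by 0.15 ± 0.07 (SE) in log2 fold change (edgeR adjusted p = 0.215).

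Of the 4 widely expressed members, Cd81 alone passed. Cd9, which restrains fusion of macrophages and binds integrins, was at 244, 219.7 and 245 CPM in control and at 250.2, 236 and 247 CPM with DB2313. These ranges overlapped in part, and the interval of the log2 fold change, -0.10 to 0.20, left out a change of the size seen for Cd81. Cd63, the tetraspanin of late endosomes and lysosomes, was at 489, 479 and 518 CPM in control and at 502, 442 and 425 CPM with DB2313. Its log2 fold change was -0.12, with an interval of -0.28 to 0.04. A processed copy, Cd63-ps, matches it over 858 bp at 98.0% identity and took 4716 reads against 48014, and the sum of both gave a log2 ratio of -0.11. Cd151, a partner of laminin-binding integrins, went from 26.1 ± 2.23 to 31.7 ± 1.02 CPM (SD, n = 3 each) with no overlap between the groups, which is 0.28 ± 0.10 (SE) as a log2 fold change (edgeR adjusted p = 0.0942).

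The 3 markers of exosomes thus differed among themselves in their values, with log2 fold changes of 0.85 for Cd81, 0.05 for Cd9 and -0.12 for Cd63. The 95% interval of Cd81, 0.68 to 1.02, lay above those of both others. A difference between the changes of these genes was not tested.

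Of the 6 TspanC8 members, 4 were tested and Tspan33 alone passed. Tspan14, the most abundant of them by RPKM, had a log2 fold change of -0.07, Tspan5 of 0.04 and Tspan17 of 0.01, with edgeR adjusted p-values of 0.676, 0.884 and 0.984. Tspan10 and Tspan15 had at most 6 reads in any library. Adam10, the protease that these members carry, had a control level of 196 ± 11.6 CPM and a DB2313 level of 203 ± 21.99 CPM (SD, n = 3 each), with a log2 fold change of 0.05 and an edgeR adjusted p of 0.767. The levels of Adam10 thus differed by less than the spread between libraries.

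The remaining tested members, Tspan4, Tspan31, Tspan9 and Tspan18, did not pass. Tspan4, known for its place on migrasomes, the vesicles that migrating cells leave behind, went from 15.4 ± 0.573 to 19.5 ± 1.13 CPM (SD, n = 3 each), with no overlap, which is 0.34 ± 0.11 (SE) as a log2 fold change (edgeR adjusted p = 0.0679). It lies 3766 bp downstream of Cd151. Of the other tested genes within 50 kb of Tspan4 and Cd151, Cracr2b, on the other side of Cd151, rose with a log2 fold change of 1.17 ± 0.21 (SE; edgeR adjusted p = 0.00241), and Slc25a22, Pidd1, Rplp2, Pnpla2, Polr2l and Chid1 did not pass. These neighbours were named with their values known. Tspan31 had a log2 fold change of -0.12 and lay lower in every DB2313 library, with an edgeR adjusted p of 0.399. It overlaps Cdk4 on the opposite strand by 641 bp, and Tspan4 overlaps Chid1 likewise by 292 bp, so that reads from those stretches cannot be assigned if strand was not used. Tspan9 had a log2 fold change of -0.03, and Tspan18, with 2 to 21 reads per library, one of 1.11 with an interval of -0.15 to 2.37. A change of this size was not resolved for Tspan18 at this depth.

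The 9 members that were not tested, Upk1a, Upk1b, Tspan1, Tspan6, Tspan8, Tspan10, Tspan11, Tspan12 and Tspan15, had 10 counts or fewer in every library. The uroplakin tetraspanins Upk1a and Upk1b, components of the bladder epithelial surface, are among them. Upk1b and Tspan11 had 0 reads in all 6 libraries, where 3 counts correspond to 0.150 to 0.188 CPM, which is the level that a count of 0 allows.

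Levels were compared between genes as RPKM (TMM-scaled CPM per kilobase of the deposited gene length). For all 29 members this length equals that of all annotated exons merged in GENCODE M21. It need not be the length of the transcripts present, and the order of genes depends on it. By CPM, Cd63 at 496 ± 20.3 was above Cd53 at 372 ± 15.4 in control (SD, n = 3 each). By RPKM in control, Cd53 was highest at 214 ± 8.83, before Cd63 at 135 ± 5.51 and Cd9 at 116 ± 6.997 (SD, n = 3 each). These 3 genes held 57.0 to 61.4% of the summed RPKM of the family in every library, so the bulk of that sum came from genes that did not pass the test. Cd82 at 52.2 ± 2.82 and Tspan13 at 51.3 ± 2.19 RPKM did not differ beyond their spread, nor did Cd37 at 40.7 ± 3.41 and Tspan3 at 37.6 ± 2.97 RPKM, or Tspan31 at 22.5 ± 0.214 and Cd81 at 21.7 ± 1.499 RPKM. With DB2313, Cd81 moved from rank 10 to rank 8 at 39.0 ± 1.595 RPKM, and Tspan13 from rank 5 to rank 7 at 40.1 ± 3.46 RPKM. These 2 members, far apart in control, were level in the treated libraries. Tspan7 was the lowest of the members above 1 RPKM in control, at 1.47 ± 0.221 RPKM, and passed Tspan2 and Tspan9 with DB2313 at 4.69 ± 0.289 RPKM. By RPKM, the gene with the largest fold change was thus a minor tetraspanin of these cells in both groups. Summed over the family, the level was 746 to 797 RPKM in control and 822 to 844 RPKM with DB2313.

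**Figure D3:**
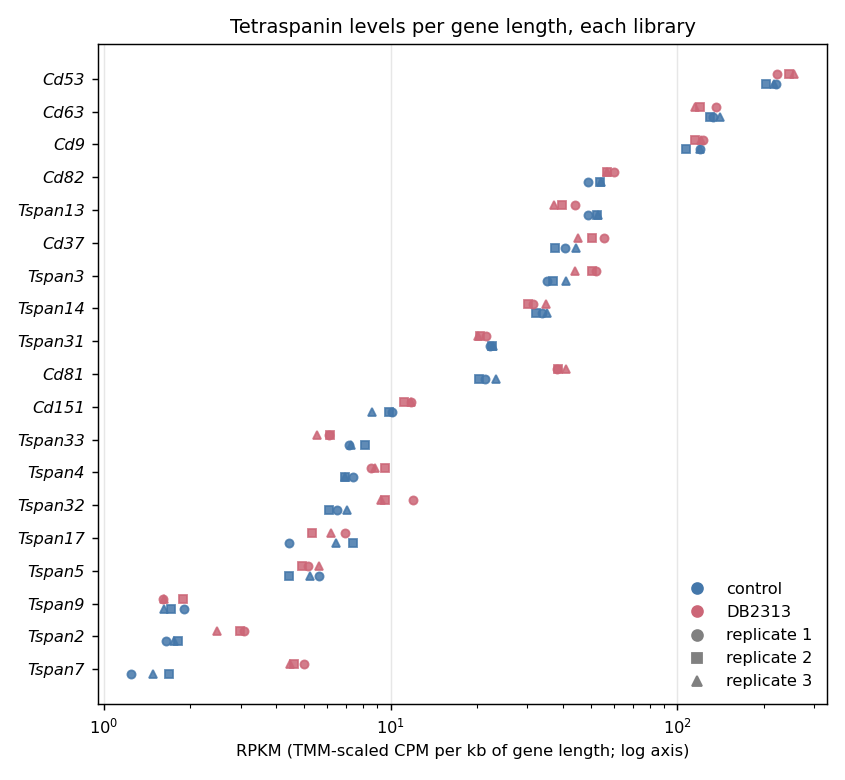
RPKM (x axis, log scale) in each of the 6 libraries for the 19 tetraspanin genes above 1 RPKM in control, ordered by control level; Tspan18 and the 9 untested members lie below the plotted range. Cd53, Cd63 and Cd9 lead in both groups, and Tspan7 at the bottom shows the widest gap between control and DB2313.

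Proteins known to bind tetraspanins were examined next, from a list of 38 of which 37 were analysed and 32 were tested. Of these, 3 rose and 5 fell, 25% beside 10.6% of all genes, and their median log2 fold change was -0.03. The partners thus moved in both directions. Mmp14, a membrane-bound collagenase, fell most, from 108 ± 4.34 to 61.4 ± 5.998 CPM (SD, n = 3 each), or -0.82 ± 0.08 (SE) as a log2 fold change (edgeR adjusted p = 2.2e-05). Cldn1, a claudin, fell from 15.4 to 9.74 CPM, or -0.67 ± 0.14 (SE) as a log2 fold change (edgeR adjusted p = 0.00696).

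The integrin subunits Itga4, Itga5 and Itgb1 fell, of which the alpha subunits pair with Itgb1 as receptors for VCAM1 and fibronectin, with log2 fold changes of -0.52, -0.36 and -0.25 and edgeR adjusted p-values of 0.0205, 0.0190 and 0.0258. Itga4 was unevenly low in the treated libraries, at 143, 196 and 240.1 CPM beside 260.4, 307 and 264 CPM in control. The other integrin subunits tested in the list did not pass. The leukocyte subunit Itgb2 and Itga6 had log2 fold changes of -0.09 and -0.19, with edgeR adjusted p-values of 0.583 and 0.201. Itgb7 and the sparsely counted Itga3 lay higher in every DB2313 library than in any control library. Their log2 fold changes were 0.12 and 0.93, with edgeR adjusted p-values of 0.311 and 0.0792. Among the partners that rose, Cd36, a scavenger receptor for oxidised lipids, had a log2 fold change of 0.35, Igsf8, the immunoglobulin-type partner of Cd9 and Cd81, of 0.28, and Ifitm3, an antiviral membrane protein, of 0.24, with edgeR adjusted p-values of 0.0190, 0.0308 and 0.0453. Ptgfrn, the relative of Igsf8, went from 9.62 ± 1.82 to 7.62 ± 1.24 CPM (SD, n = 3 each) without passing. Mmp14 kept its call in all 17 alternative analyses. Cldn1 passed in 16 of the 17 (adjusted p = 0.0515 without DB2313 replicate 2), Cd36 in 15, Itga5 in 14, Igsf8 and Itgb1 in 12, and Itga4 and Ifitm3 in 11, with adjusted p-values of up to 0.291 for Ifitm3. Leaving out single libraries took away calls of each of these, DESeq2 and robust edgeR took away that of Itga4, and the gene-length offset that of Ifitm3. The replicate block took away those of Igsf8, Itgb1 and Ifitm3, and the block with the gene-length offset that of Ifitm3. In this list and the next together 11 genes passed, but 4 without control replicate 1 or 2, 3 without control replicate 3 or DB2313 replicate 2, and 21 without DB2313 replicate 3.

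Of 31 tested genes of the exosome and endosome machinery, in which tetraspanins travel, 2 rose and 1 fell, 9.68% beside 10.6% of all genes, with a median log2 fold change of 0.01. Sdcbp, the syntenin adaptor that links syndecans and Cd63 to exosome budding, rose from 485 ± 34.5 to 575 ± 14.7 CPM (SD, n = 3 each), with a log2 fold change of 0.24 and an edgeR adjusted p of 0.0350. The syndecans went in both directions, with a log2 fold change of 0.29 for Sdc4 and of -0.33 for Sdc1 and edgeR adjusted p-values of 0.0446 and 0.0103. Pdcd6ip (Alix), Tsg101 and Rab27a, which act in vesicle budding and release, had log2 fold changes of 0.05, 0.01 and 0.00 and did not pass. Sdc1 passed in 15, Sdcbp in 13 and Sdc4 in 10 of the 17 alternative analyses, with adjusted p-values of up to 0.0583, 0.195 and 0.178. The share that passed was near that of all genes.

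**Figure D4:**
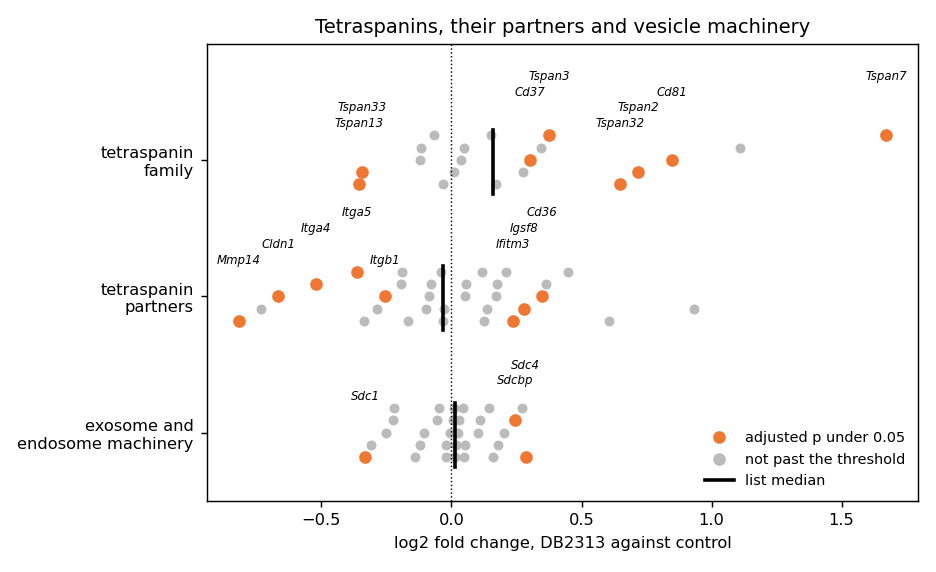
Log2 fold change (x axis, DB2313 against control) of the tested tetraspanins (20 genes), tetraspanin partners (32) and exosome and endosome machinery (31), 1 point per gene, with a bar at each median and the names above the points past an adjusted p of 0.05. The medians are 0.16, -0.03 and 0.01, and Tspan7 and Mmp14 are the outermost named genes.

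The calls were recomputed under 17 other settings of scaling, filter, tool, covariate and libraries. Tspan7, Cd81, Tspan32 and Tspan2 passed in all 17, with log2 fold changes of 1.56 to 1.79, 0.81 to 0.90, 0.53 to 0.72 and 0.66 to 0.81. The other 4 members kept their direction in all 17 and lost the call in at least one. Of the 12 members that did not pass, 11 passed under none of the settings, and Cd53 passed under one.

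**Figure D5:**
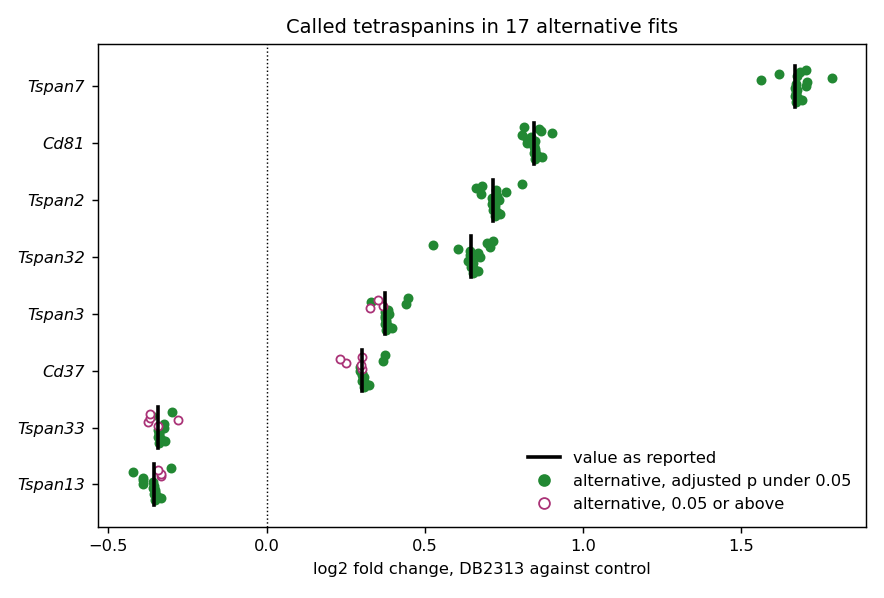
Log2 fold change (x axis, DB2313 against control) of the 8 members past the threshold, as reported (bar) and in 17 alternative analyses (points, filled where the adjusted p was under 0.05 and open where it was not). Points of Tspan7, Cd81, Tspan2 and Tspan32 are all filled, and open points appear for Tspan3, Cd37, Tspan33 and Tspan13 with no change of sign.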

How the data were processed

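RNA-seq libraries of mouse dendritic cells, 3 control and 3 treated with DB2313, were grouped by the treatment in the labels. The file deposited by the authors gives whole-number read counts, not normalised, with 1 column for each library and a gene length in base pairs. The submitters' processing notes list CASAVA 1.8, HISAT2 2.0.5 and featureCounts 1.5.0-p3, whereas the methods of the study name LifeScope for alignment and counting. Genome build, strandedness and the treatment of multimapping reads are not given in the sources used here. Of 54409 gene identifiers shared with GENCODE M21 (GRCm38), 98.327% had the same position, as had all 29 members, so coordinates are given as GRCm38.

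Counts were tested with edgeR 4.0.16 in R 4.3.3 (glmQLFit and glmQLFTest, TMM scaling, filterByExpr, group as the only term), with Benjamini-Hochberg adjustment over all 14174 genes tested, and a gene was called at an adjusted p under 0.05. All adjusted p-values are from this test unless another is named. Standard errors were derived from the log2 fold change and its F statistic. Floors cover counting error only, since PCR copies of a molecule were not told apart. The test was also run on simulated counts, and the outcome is not used as support here. Total counts were 16146743 to 19764677 per library, and the spread between replicates had a biological coefficient of variation of 9.66%, which with 3 libraries per group limits the precision. The labels give no batch.

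Members and gene lists were chosen with earlier results of these data known, the lists being written from general knowledge and not copied from a database. All members were named, with values in every library for those called or with a mean of at least 100 CPM in a group, and of the partner and exosome lists every gene called. Of the partner list, 1 gene was not analysed here. Adam10, Itgb2, Itga6, Itgb7, Itga3, Ptgfrn, Pdcd6ip, Tsg101 and Rab27a, genes of those lists that did not pass, were named with their values known. Near-identical copies were looked for by blastn 2.17.0 in the GENCODE M21 transcripts, at 95% identity over 100 bp or more. Alternatives were DESeq2 size factors, library totals, a minimum mean of 10 counts, no filter, restriction to protein-coding genes, DESeq2 1.42.0, limma-voom (limma 3.58.1), robust edgeR, a gene-length offset, a replicate block, both together, and the omission of each library. The values of 1 gene are not reported here.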

Additional observations from a re-analysis of the deposited data

How the results depend on the processing

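The numbers of tetraspanins called, 6 higher and 2 lower, were unchanged by DESeq2 size factors, library totals, a minimum mean of 10 counts, no filter, restriction to protein-coding genes, DESeq2, limma-voom, robust edgeR and a gene-length offset. With each library left out in turn, 4 to 6 members were called higher and 0 to 2 lower (0 without control replicate 2 or 3 or DB2313 replicate 2, and 1 without control replicate 1). The labels do not say whether the replicate numbers pair the libraries. Correlations of the deviations from the group mean were 0.0035, -0.024 and -0.12 for same-numbered libraries. For the other pairs they were -0.072 to 0.096. With 3 libraries per group these values cannot decide whether the libraries were paired. A fit with the replicate block called 5 members higher and 1 lower, with an edgeR adjusted p of 0.0694 for Cd37 and 0.0596 for Tspan33, and 502 genes higher and 629 lower in all. With both the block and the length offset, 6 and 2 were called. Of the partner and exosome genes, 11 were called, 6 with the replicate block, and 3 to 21 with 1 library left out (21 without DB2313 replicate 3). These alternatives for the partner and exosome lists were added after seeing the data. Over all genes, 328 to 1097 were higher and 411 to 1311 lower with 1 library left out. The sign of 3 uncalled members near 0 changed. Tspan17 had a log2 fold change of -0.044 with the length offset, -0.024 with the block and that offset, and -0.18 to 0.18 with 1 library left out. With 1 library left out, Tspan5 lay between -0.050 and 0.11 and Tspan9 between -0.11 and 0.032. The cause of these differences was not tested. Depth limits Tspan18 and the 9 untested members.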
